A study of Danio rerio with 24 samples.

Results

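The proteasome subunit genes of the zebrafish were followed in whole embryos that carried or lacked a knockout of the apelin pathway and that had received the small molecule ML233 or its solvent. Members were the protein-coding rows of the count table whose symbol began with psma, psmb, psmc, psmd, psme or psmf and a digit, and which had at least 10 counts in 4 or more libraries. Of 37660 rows in the table, 52 matched the pattern and 47 met the count rule. The members were 15 genes of the 20S core, 4 genes of the immunoproteasome type, 22 genes of the 19S regulatory particle, 5 genes of activators and the inhibitor, and psmc3ip, whose symbol matches the pattern although its product is a meiotic recombination partner and no subunit. The 19S class was set by symbol, so what are called 19S genes here include the assembly factors psmd5, psmd9 and psmd10.

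The 26S proteasome degrades proteins that carry ubiquitin chains. Its 20S core is a barrel of alpha rings (psma genes) and beta rings (psmb genes) with the catalytic sites inside, and the 19S particle, built from ATPases (psmc genes) and non-ATPase subunits (psmd genes), recognises, unfolds and feeds in the substrates. In mammals, cells exposed to interferon exchange the catalytic beta subunits for PSMB8, PSMB9 and PSMB10 and add the PSME1 and PSME2 activator, while the transcription factor NFE2L1 raises the genes of the whole particle together when proteasome activity falls short.

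The libraries came from pools of about 50 embryos in 6 groups of 4: embryos labelled KO in DMSO, KO with ML233 at 0.5 µM for 3 h, KO with ML233 for 24 h, and wild-type (WT) embryos with the same 3 treatments. All were labelled 3 days post fertilisation. The titles call the KO line an apelin receptor knockout, the protocol describes mutants of both receptor genes from the AB strain with WT embryos from the same grandparents, and the design text speaks of apelin, so the group is named only as labelled. The DMSO groups carry a time of 0 h, so an effect of ML233 and an effect of the hours of treatment cannot be told apart.

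Libraries held 29.0 M to 43.4 M counts. The receptor genes had 13.3 to 21.3 CPM (aplnra) and 9.70 to 17.7 CPM (aplnrb) in KO libraries, against 23.3 to 25.8 CPM (aplnra) and 21.4 to 27.0 CPM (aplnrb) in WT libraries, where CPM is a gene's count per M counts of the scaled library, with M for mega. On principal components computed without the members, 6 KO libraries (DMSO replicates 2 and 4, 3 h replicates 3 and 4, 24 h replicates 2 and 4) stood apart on the first component, at 37.5 to 143.1, against -47.5 to -27.8 in the other 6 KO libraries. WT replicates 3 and 4 of every treatment stood apart on the second, at 39.9 to 66.8, against -6.35 to 0.41 in WT replicates 1 and 2. They also lay higher on the first, at -5.58 to 43.3 against -50.9 to -42.7, the same direction as the 6 KO libraries. The first component held 41.6% of the variance and the second 17.4%. Calls of members and counts of called genes in the lists outside the members, between KO and WT over the 3 treatments, are given with and without these 12 libraries. The 12 were chosen from these same data, so leaving them out can narrow the spread within groups and lower p-values. Calls from those fits are descriptions and not separate tests. Markers of muscle, nervous system, skin, gut, liver, pancreas, eye and vessels were detected in every library, as the label of whole embryos asks. Of the 17 markers in that list, 0 rose and 4 fell in KO over the 3 treatments (edgeR adjusted p under 0.05). Of all genes 9.39% rose and 6.29% fell. Without the 6 KO libraries 2 markers fell (2.28% of all genes), without WT replicates 3 and 4 it was 2 (1.71%), and without both sets 7 (4.81%). In these fits 0 of the markers rose.

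The 20S core and 19S genes rose and fell together from library to library, and the libraries that stood apart held more of them in both genotypes. Summed over the 15 core genes, the level was 797 and 947 CPM in KO DMSO replicates 1 and 3 and 1205 and 1217 CPM in replicates 2 and 4. It was 939, 959, 1118 and 1272 CPM in KO 3 h replicates 1 to 4, and 944, 1763, 897 and 1431 CPM in KO 24 h replicates 1 to 4. In WT the core sum was 833, 810, 1173 and 1093 CPM in DMSO replicates 1 to 4. It was 871, 876, 1327 and 1380 CPM in WT at 3 h, and 808, 868, 1483 and 1150 CPM in WT at 24 h. Every library that stood apart lay above every other library of its genotype, and the KO and WT ranges overlapped.

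The 19S sum followed the same order of library sets. It was 1612 to 2251 CPM in the 6 KO libraries that stood apart and 1134 to 1298 CPM in the other 6, and 1516 to 1922 CPM in WT replicates 3 and 4 and 1110 to 1163 CPM in WT replicates 1 and 2. All 15 core genes and 20 of 22 genes of the 19S particle had each of the 6 KO libraries above each of the other KO libraries, a pattern that 16.3% of all tested genes showed. No member had them all below, as 16.4% of all genes did. In WT, 12 of 15 core genes and 20 of 22 genes of the 19S particle had replicates 3 and 4 above replicates 1 and 2 in every library, which 14.5% of all genes showed. These counts of WT genes and the order of both sums were the same with RLE, upper-quartile and no scaling of library sizes. These are descriptions of sets found in the data and carry no test.

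**Figure D1:**
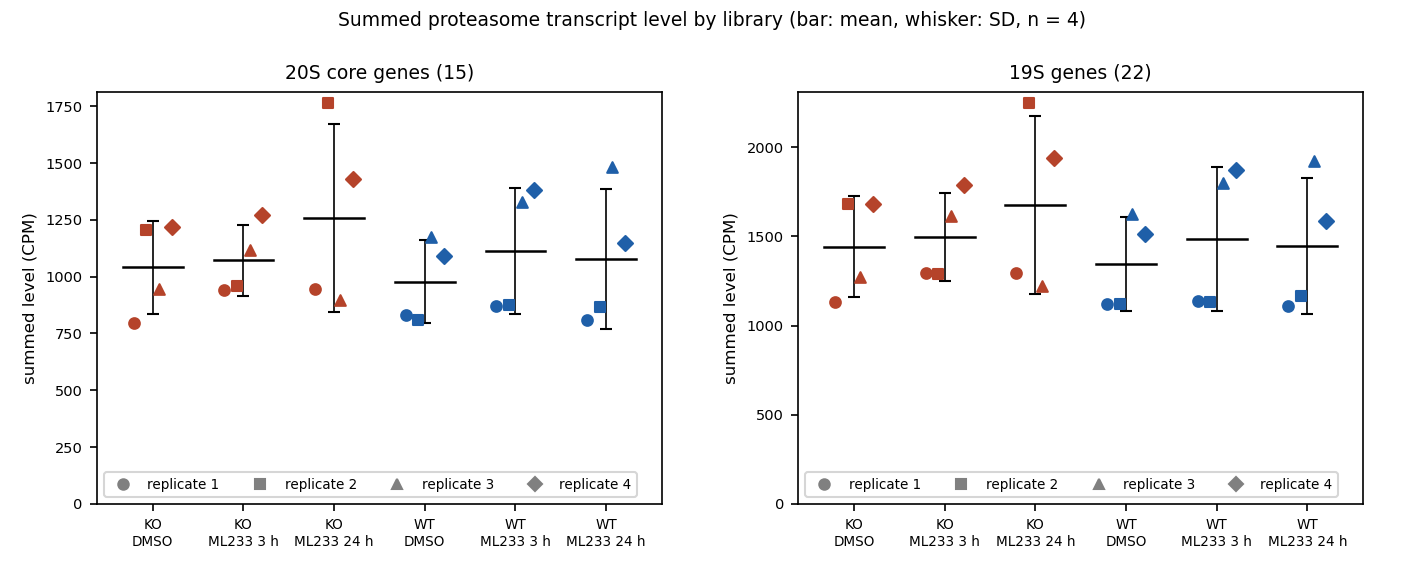
Summed level in CPM (vertical axis) of the 15 genes of the 20S core (left) and the 22 genes of the 19S particle (right) in each library, by group (horizontal axis). Points are libraries with a shape for each replicate number, bars are means and whiskers the SD of 4 libraries; KO 24 h replicate 2 was highest in both panels, at 1763 and 2251 CPM, and every group splits into a lower and a higher pair.

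Most members of the 2 classes lay close to the common level of those classes. For each gene the deviation from the common level, which is the median log2 deviation of the core and 19S genes in a library, had an SD over 24 libraries below 0.15 on the log2 scale in 13 of 15 core genes and 19 of 22 genes of the 19S particle. The tightest were psmc2, an ATPase of the 19S base, at 0.036 and psmb4, a structural beta subunit, at 0.040. The exceptions were psma6l (0.39) and psmb5 (0.45) in the core, and psmd9 (0.16), psmc6 (0.53) and psmd10 (0.72) in the 19S class. For psmb5 and psmc6 this is the spread of the row that bears the symbol only, and further rows matched to them are described below. Summed with those rows, both genes split into the same low and high libraries as the core and 19S sums. The spread of their sums around the common level is not given here. The common level was taken from these same genes, so small spreads among them are partly built in. The share of all genes with such a spread is not given here. Genes also share libraries and normalisation, so the spreads describe these libraries only. The activators and the inhibitor (0.27 to 0.64) and the immunoproteasome-type genes (0.25 to 0.71) did not keep to that level, the last with few counts. Genes of these other classes did not enter the common level.

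**Figure D2:**
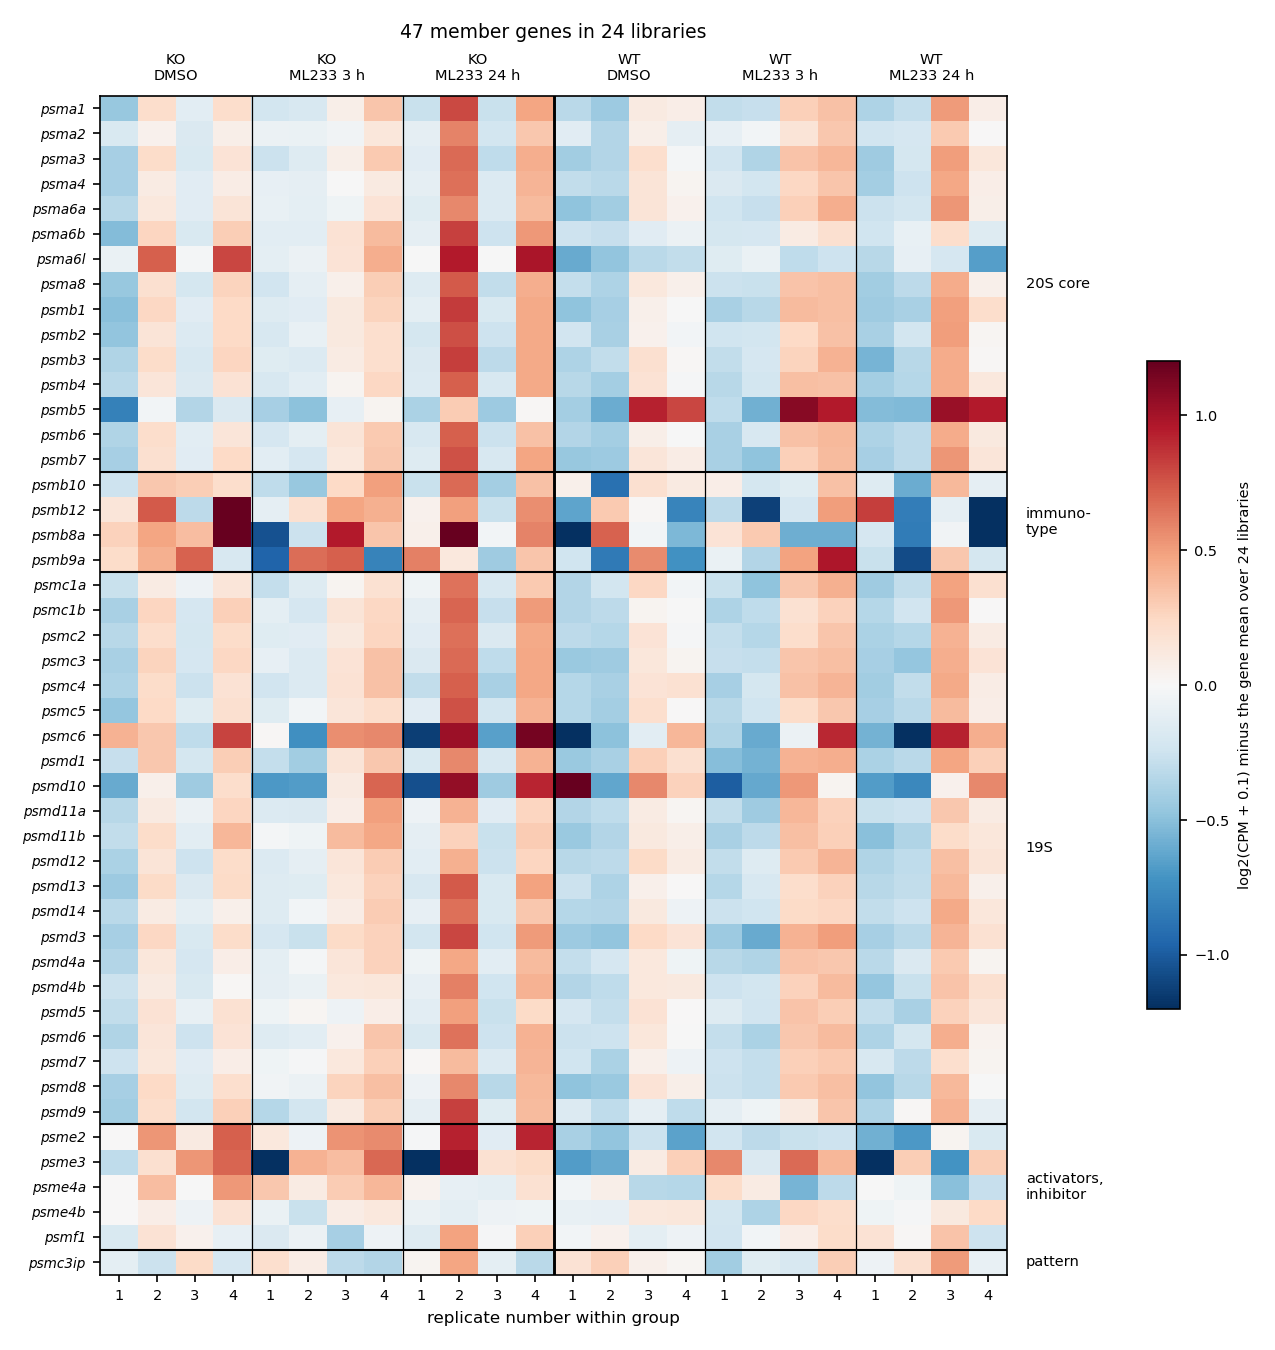
Each row is 1 of the 47 members, grouped by class, and each column 1 library, ordered by group and replicate; colour is log2(CPM + 0.1) minus the gene's mean over 24 libraries. Most core and 19S rows show the same sequence of low and high libraries, while psma6l, psmb5, psmc6, psmd10, the immunoproteasome-type genes and psme2, psme3 and psme4a differ from it. For psmb5 and psmc6 only the row that bears the symbol is shown, without the further rows matched to them.

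Most constitutive genes had a higher level per length than the other members. Per kilobase of the table's gene length, core genes averaged 3.73 to 104 CPM in KO libraries and 2.30 to 94.3 CPM in WT libraries, with medians of 52.8 CPM per kilobase in KO and 50.7 in WT. Genes of the 19S particle had medians of 38.5 CPM per kilobase in KO and 36.5 in WT. The activators and the inhibitor had 4.56 to 10.6 CPM per kilobase in KO and 2.71 to 10.98 in WT, and the immunoproteasome-type genes 0.19 to 2.27 in KO and 0.092 to 2.03 in WT. The classes overlapped, with psmd10 of the 19S class at 0.57 CPM per kilobase in KO and 0.75 in WT, below psmb10 at 2.27 in KO and 2.03 in WT, and psma6l of the core below each activator in KO. psma8, an alpha subunit gene, was among the high core genes at 96.6 CPM per kilobase in KO and 90.3 in WT, and no row named psma7 matched the pattern.

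Paralogs of a subunit differed in level. Among the copies of the alpha subunit psma6, psma6a had 43.6 CPM per kilobase in KO and 42.2 in WT, psma6b had 36.9 in KO and 31.5 in WT, and psma6l had 3.73 in KO and 2.30 in WT. psmc1b, an ATPase gene, had 45.9 CPM per kilobase in KO and 41.2 in WT, and its copy psmc1a had 11.2 in KO and 10.8 in WT. The psmc1a values are of its named row only, and a further row matched to it is described below. The lid subunit genes psmd11a and psmd11b were alike, with 10.23 and 10.02 CPM per kilobase in KO and 9.502 and 8.809 in WT. psmd4b, a ubiquitin receptor, had 32.6 CPM per kilobase in KO and 31.2 in WT, and psmd4a had 11.9 in KO and 11.1 in WT. How reads shared by near-identical copies were assigned is not given in the sources used here, so the split between copies is uncertain.

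Between KO and WT embryos no 19S gene passed the threshold, and psma6l was the only core gene that did. The other members called were activator genes. Averaged over the 3 treatments, psme2, psma6l and psme4a rose and no member fell (edgeR quasi-likelihood test, adjusted p under 0.05). That is 3 of 47 members, where the same test called 15.7% of all genes, 9.39% higher and 6.29% lower. At an unadjusted p under 0.05 were 5 members and 29.2% of all genes. No member had its 12 KO libraries all above or all below the 12 WT libraries, as 0.378% and 0.222% of all genes did. The median log2 fold change was 0.10 over the core genes, 0.11 over the 19S genes, 0.26 over the activators and inhibitor and 0.53 over the immunoproteasome-type genes, against -0.007 over all tested genes. The last class held only 4 genes, none of them called, and psmb8a, psmb9a and psmb12 had few counts. Its well-counted gene, psmb10, had 0.16. The class median was 0.18 without the KO libraries that stood apart, 0.75 without WT replicates 3 and 4 and 0.11 without both sets. This mean counts libraries of different treatments as independent, which the labels do not show, and p-values measure the spread between pools. Same-numbered WT libraries deviated together between treatments (correlation 0.32 to 0.55), as did those of KO 24 h and KO DMSO (0.49 to 0.62). Not every pair with KO 3 h did. The p-values of this mean, on which the 3 calls rest, can therefore be too small.

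**Figure D3:**
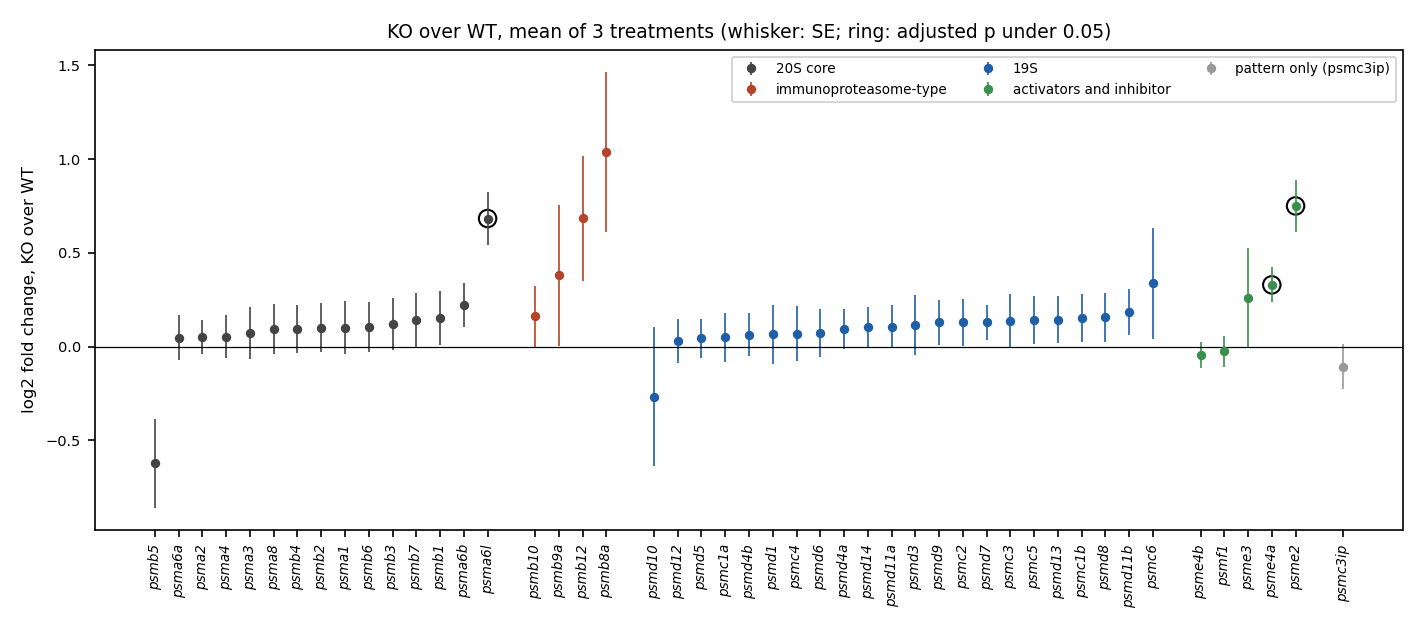
Log2 fold change of KO over WT (vertical axis), averaged over 3 treatments, for each of the 47 members (horizontal axis), ordered within class; whiskers are SE and rings mark an adjusted p under 0.05. Most core and 19S genes lie between 0 and 0.25, psmb5 lies lowest at -0.62, and the rings are on psma6l (0.68), psme4a (0.33) and psme2 (0.75).

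psme2, which encodes a subunit of the interferon-inducible 11S activator in mammals, lay on chromosome 12 at 13319132 to 13331980 (GRCz11). It had 5.90, 8.53, 6.32 and 9.71 CPM in KO DMSO replicates 1 to 4, against 4.46, 4.204, 4.88 and 3.73 CPM in WT DMSO. At 3 h it had 6.44, 5.61, 8.60 and 8.76 CPM in KO, against 5.01, 4.72, 4.87 and 4.93 CPM in WT. At 24 h it had 5.81, 11.2, 5.35 and 11.2 CPM in KO, against 3.91, 3.60, 6.01 and 5.14 CPM in WT. The KO libraries lay above the WT libraries without overlap in DMSO and at 3 h, as 3.67% and 3.89% of all genes did, and overlapped at 24 h.

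Over the 3 treatments psme2 was higher by 0.75 in log2 units (SE 0.14; edgeR adjusted p = 0.00107). By treatment it was 0.82 in DMSO (SE 0.24, adjusted p = 0.167), 0.59 at 3 h (SE 0.24, adjusted p = 0.309) and 0.84 at 24 h (SE 0.24, adjusted p = 0.104). The 6 KO libraries that stood apart held 8.53 to 11.2 CPM and the other 6 held 5.35 to 6.44 CPM. Without those 6 libraries the log2 fold change was 0.34 (edgeR adjusted p = 0.0777). Without them and without WT replicates 3 and 4 it was 0.46 (adjusted p = 0.0046). psme2 overlaps lsm5 on the opposite strand, and the log2 fold change of lsm5 was -0.02 (adjusted p = 0.951).

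psma6l, the least abundant of the psma6 copies, lay on chromosome 15 at 47920629 to 47929455. It had 3.86, 6.82, 4.04 and 7.21 CPM in KO DMSO replicates 1 to 4, against 2.67, 2.93, 3.26 and 3.33 CPM in WT DMSO. At 3 h it had 3.78, 3.91, 4.60 and 5.58 CPM in KO, against 3.70, 3.86, 3.30 and 3.44 CPM in WT. At 24 h it had 4.08, 7.996, 4.09 and 8.15 CPM in KO, against 3.23, 3.83, 3.56 and 2.56 CPM in WT. KO replicates 2 and 4 were highest in DMSO and at 24 h, and KO did not overlap WT there but did at 3 h. The 4 KO libraries were all above the 4 WT libraries in 3.67% of all genes in DMSO and in 3% at 24 h. At 24 h psmb8a also had this pattern, with at most 21 counts in any library.

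Over the 3 treatments psma6l was higher by 0.68 in log2 units (SE 0.14; edgeR adjusted p = 0.00247). It was 0.25 (adjusted p = 0.144) without the 6 KO libraries that stood apart. It was 0.66 (adjusted p = 0.0567) without WT replicates 3 and 4, and 0.24 (adjusted p = 0.134) without both sets. The fold changes of the other copies were 0.05 for psma6a (adjusted p = 0.851) and 0.22 for psma6b (adjusted p = 0.223). psma6b overlaps nfkbiaa on the opposite strand, whose log2 fold change was 0.99 (adjusted p = 0.00172).

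psme4a, a copy of the gene of the activator PA200, which in mammals acts in chromatin and the testis, lay on chromosome 13 at 35689749 to 35744963. It had 30.9, 40.1, 30.7 and 44.3 CPM in KO DMSO replicates 1 to 4, against 30.1, 32.4, 24.6 and 24.4 CPM in WT DMSO. At 3 h it had 38.6, 33.1, 38.1 and 40.8 CPM in KO, against 36.1, 33.02, 20.9 and 24.8 CPM in WT. At 24 h it had 31.9, 28.8, 28.5 and 35.1 CPM in KO, against 30.7, 29.8, 21.8 and 25.4 CPM in WT. The genotypes overlapped in every treatment, and WT replicates 3 and 4 were the low libraries, at 20.9 to 25.4 CPM against 29.8 to 36.1 CPM in WT replicates 1 and 2.

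psme4a had a log2 fold change of 0.33 (SE 0.093, edgeR adjusted p = 0.02) over the 3 treatments. Without WT replicates 3 and 4 it was 0.13 (adjusted p = 0.311), without the 6 KO libraries that stood apart 0.20 (adjusted p = 0.296), and without both sets 0.01 (adjusted p = 0.936). It was the only member with all of WT replicates 3 and 4 below WT replicates 1 and 2, a pattern that 14.5% of all genes showed. Its paralog psme4b had 66.2 to 89.4 CPM in KO libraries and 61.3 to 94.5 CPM in WT libraries, with a log2 fold change of -0.05 (SE 0.070, adjusted p = 0.73). At 24 h the named row of psme4b had all KO libraries below all WT libraries, as 2.87% of all genes did. It had 73.3 to 76.5 CPM in KO libraries and 76.7 to 93.6 CPM in WT libraries, with a log2 fold change of -0.15 (edgeR adjusted p = 0.595). With its rows on alternate contigs added, which are described below, the genotypes overlapped at 24 h. There KO replicate 3 had 83.4 CPM and WT replicate 1 had 80.6 CPM.

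**Figure D4:**
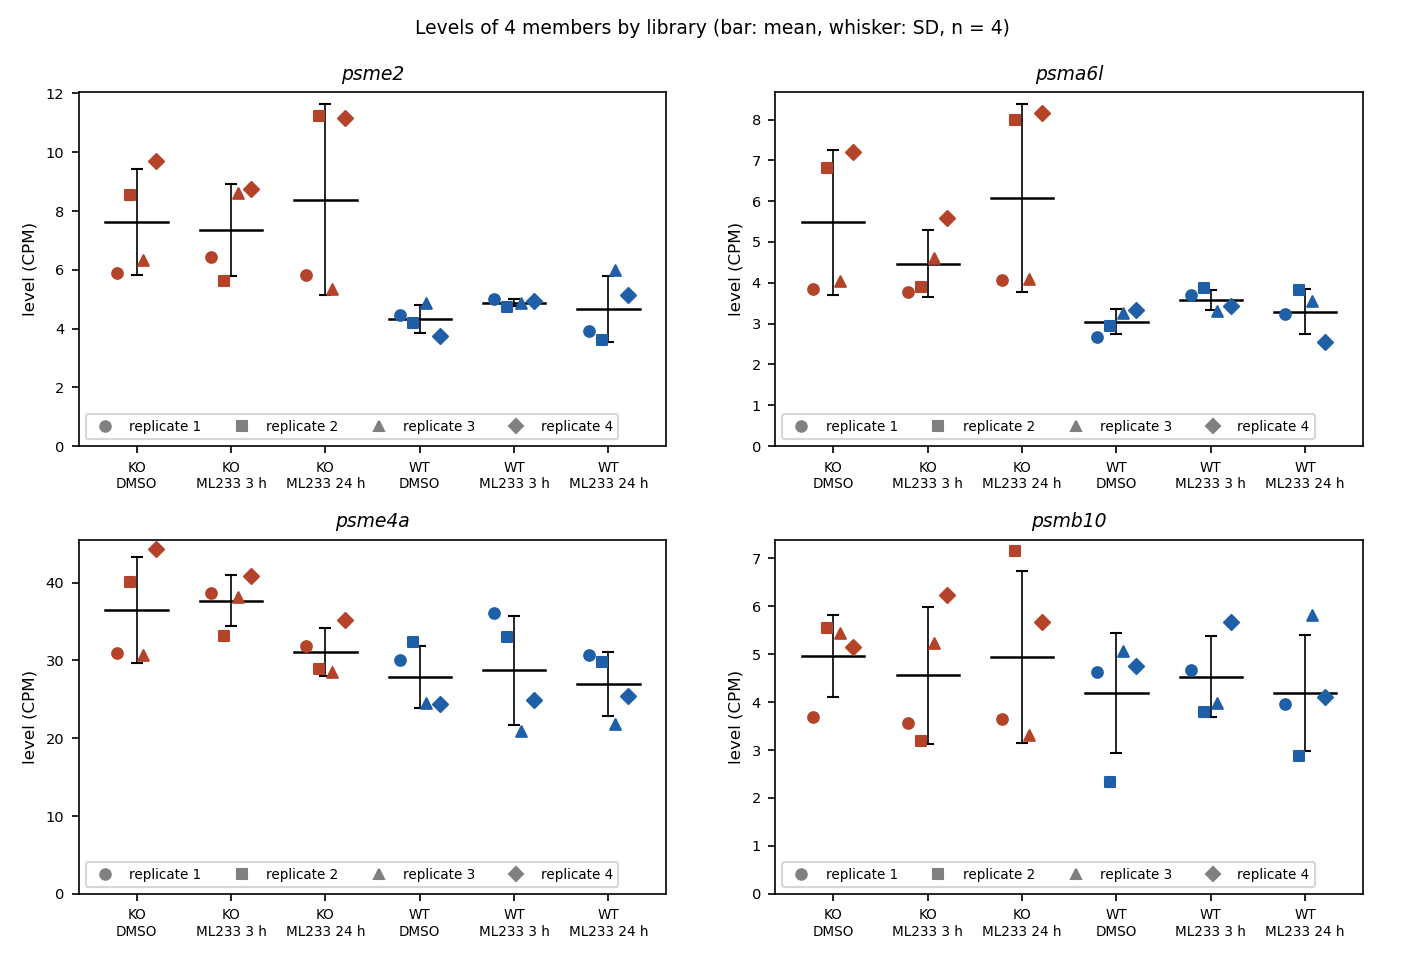
Level in CPM (vertical axis) of psme2, psma6l, psme4a and psmb10 in each library, by group (horizontal axis), with means (bars), SD of 4 libraries (whiskers) and a shape for each replicate number. In psme2 the 6 highest KO libraries (8.53 to 11.2 CPM) are those that stood apart, and in psme4a the 6 lowest libraries are WT replicates 3 and 4.

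The other activator genes and the inhibitor did not pass the test. psme3, which encodes the nuclear activator PA28 gamma, varied widely within each genotype, at 5.94 to 34.4 CPM in KO libraries and 5.32 to 27.0 CPM in WT libraries, with a log2 fold change of 0.26 (SE 0.27; edgeR adjusted p = 0.586). psmf1, which encodes the inhibitor PI31, had 8.96 to 16.6 CPM in KO libraries and 9.95 to 14.99 CPM in WT libraries, with a log2 fold change of -0.03 (SE 0.084, adjusted p = 0.89). psmc3ip had 2.37 to 4.27 CPM in KO libraries and 2.26 to 4.40 CPM in WT libraries, with a log2 fold change of -0.11 (adjusted p = 0.619).

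Of the immunoproteasome-type genes, psmb10 was well counted and psmb8a, psmb9a and psmb12 had few counts. psmb10, the catalytic subunit that replaces psmb7, had 3.20 to 7.15 CPM in KO libraries and 2.33 to 5.82 CPM in WT libraries, with 86 to 214 counts per library and a log2 fold change of 0.16 (SE 0.16, edgeR adjusted p = 0.578). psmb8a, the counterpart of psmb5, had 0.043 to 0.68 CPM in KO libraries and 0 to 0.38 CPM in WT libraries and at most 21 counts, with a log2 fold change of 1.04 (SE 0.43, adjusted p = 0.104). psmb9a, the counterpart of psmb6, had 0.043 to 0.36 CPM in KO libraries and 0.032 to 0.45 CPM in WT libraries and at most 14 counts (0.38, SE 0.38, adjusted p = 0.569). psmb12, a fish gene beside them, had 0.23 to 0.95 CPM in KO libraries and 0.056 to 0.63 CPM in WT libraries and at most 33 counts (0.68, SE 0.33, adjusted p = 0.175). The row of psmb8a spans chromosome 19 from 7105838 to 7144548 on the minus strand, and psmb12 and psmb9a lie apart from each other within it on the plus strand. Reads in any exons that psmb8a shares with either could not be told apart if the counting ignored strand. Only the spans of rows were compared, and the overlap of exons was not examined. The row of psmb13a, from 7111779 to 7144585, overlaps psmb8a on the same strand, where strand would not separate any shared exons.

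The rule on counts fell within this class. psmb8a and psmb9a were just inside it, with 10 or more counts in 6 libraries each, and psmb13a in the same stretch was outside, with 0 to 6 counts. psmb11a and psmb11b, whose mammalian counterpart is the catalytic subunit of the thymus cortex, had 0 to 2 counts in every library. A count of 0 in the smallest library allows up to 0.103 CPM.

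Class I antigen presentation genes, interferon-induced genes and leukocyte markers were higher in KO over the 3 treatments, where 9.39% of all genes rose. The thymus and T cell markers, given below, were not. Among 16 symbols of class I antigen presentation and its regulators, 14 rows were tested, 9 rose and none fell in KO over the 3 treatments (edgeR adjusted p under 0.05), with a median log2 fold change of 0.55. They included irf1a (1.05, adjusted p = 4e-04), a regulator of the immunoproteasome genes in mammals, and tap1 (0.60, adjusted p = 0.0128), a peptide transporter subunit. Of 9 tested interferon-induced genes, 5 rose and none fell (median 0.63), among them isg15 (2.03, adjusted p = 0.00335). Of 14 tested leukocyte markers, 11 rose and none fell (median 1.14).

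Fewer of these genes, and fewer of all genes, passed when libraries that stood apart were left out. Without the 6 KO libraries, 3 class I rows (irf1a, irf1b and stat1b), 0 interferon-induced genes and 5 leukocyte markers rose, with medians of 0.20, 0.10 and 0.37. Of all genes 1.79% rose there. Without WT replicates 3 and 4 the counts were 3, 0 and 5, where 4.11% of all genes rose. Without both sets they were 2, 1 and 6, where 5.19% of all genes rose. No gene of the 3 lists fell in these fits. The class I sum was 345 to 362 CPM in the KO libraries that stood apart and 304 to 339 CPM in the other KO libraries, against 227 to 248 CPM in WT replicates 3 and 4 and 307 to 332 CPM in WT replicates 1 and 2. The interferon-induced sum was 22.4 to 35.6 CPM in the KO libraries that stood apart and 14.2 to 24.6 CPM in the other KO libraries, which overlap, against 12.8 to 16.5 CPM in WT replicates 3 and 4 and 11.4 to 14.2 CPM in WT replicates 1 and 2.

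The summed level of the leukocyte markers was 259 to 312 CPM in the 6 KO libraries that stood apart, 118 to 136 CPM in the other 6 KO libraries, 77.8 to 89.6 CPM in WT replicates 3 and 4 and 95.7 to 109 CPM in WT replicates 1 and 2. Of the defining markers, coro1a was at 0 in 23 libraries and lyz in 11, while mpeg1.2 (5.95 to 40.6 CPM) and mpx (15.6 to 71.4 CPM) were detected in every library. The highest psme2 and psma6l levels and the highest leukocyte sums were in the same 6 KO libraries, and the part of the leukocyte markers in those results was not tested. In WT replicates 3 and 4 the core and 19S sums were high while the leukocyte sum was below that of WT replicates 1 and 2. In pools of whole embryos, more cells of a type and more RNA per cell cannot be told apart. Thymus and T cell markers summed to 24.9 to 40.4 CPM in KO libraries and 29.2 to 45.9 CPM in WT libraries, with lck at 0 in 23 libraries. Of 6 tested rows of that list, 0 rose and 1 fell in KO over the 3 treatments (edgeR adjusted p under 0.05). The median log2 fold change was -0.16, where 9.39% of all genes rose and 6.29% fell. Without the 6 KO libraries that stood apart 0 were called (median 0.076), where 1.79% of all genes rose and 2.28% fell. Without WT replicates 3 and 4, 0 rose and 1 fell (median -0.45), where 4.11% of all genes rose and 1.71% fell. Without both sets 0 were called (median -0.17), where 5.19% of all genes rose and 4.81% fell.

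The catalytic and lid genes of the constitutive particle showed small differences between the genotypes. psmb7, the trypsin-like subunit, had 90.8 to 202 CPM in KO libraries and 85.4 to 173 CPM in WT libraries, with a log2 fold change of 0.14 (SE 0.15, edgeR adjusted p = 0.587). psmb6, the caspase-like subunit, had 56.5 to 119 CPM in KO libraries and 54.6 to 99.0 CPM in WT libraries (0.10, SE 0.13, adjusted p = 0.667). psmd14, the deubiquitinase that removes the chain as the substrate enters, had 50.9 to 101 CPM in KO libraries and 49.8 to 87.2 CPM in WT libraries (0.10, SE 0.11, adjusted p = 0.609). The genotypes overlapped in each of these genes. The 6 KO libraries that stood apart held 131 to 202 CPM of psmb7 and the other 6 held 90.8 to 109 CPM, so the spread was also wide among the libraries that stood apart.

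The genes of the 2 classes with the smallest p-values were psmb1 in the core (0.15, edgeR adjusted p = 0.549), besides those described above and psmb5, and psmd11b (0.19, adjusted p = 0.35), psmd7 (0.13, adjusted p = 0.389), psmd8 (0.16, adjusted p = 0.481) and psmc1b (0.15, adjusted p = 0.488) in the 19S class. The largest p-value in the 19S class was that of psmd12, a lid subunit (0.03, adjusted p = 0.912).

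These calls depended on which libraries entered. Without the 6 KO libraries that stood apart, no member was called, where 1.79% of all genes rose and 2.28% fell. There 4 members were at an unadjusted p under 0.05. The share of all genes at that level is not given here, so the 4 cannot be set against it. The median log2 fold change in that fit was -0.19 over the core genes and -0.18 over the 19S genes. The 6 libraries left out had the highest core and 19S sums of KO, and the higher WT libraries stayed in. Leaving out the higher libraries of KO alone or of WT alone shifts these medians by construction, down in the first case and up in the second. Without WT replicates 3 and 4, 5 members rose, psmb7, psmd11b, psmd7, psmd8 and psme2, where 4.11% of all genes rose and 1.71% fell, and the medians were 0.40 and 0.39. Without both sets, 12 members rose and none fell, where 5.19% of all genes rose and 4.81% fell, with medians of 0.11 over the core and 0.15 over the 19S genes. Both sets were chosen from these same data, which can make the p-values of these fits too small. Core and 19S genes moved together, so calls among them are not separate results. With 3 surrogate variables as covariates 13 members rose, but of the 3 named above only psme2 was among them. The share of all genes called in that fit is not given here, so the 13 cannot be set against it. There psma6l had 0.18 (adjusted p = 0.33) and psme4a -0.0303 (adjusted p = 0.832). Among the 12 called without both sets were psmb7 (0.21, edgeR adjusted p = 0.0102), psmd11b (0.25, adjusted p = 0.00498) and psmb1 (0.20, adjusted p = 0.0299).

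Within single treatments no member was called between KO and WT. In DMSO 0.148% of all genes were called, and 4 members and 10.7% of all genes were at an unadjusted p under 0.05. At 3 h 0.148% of all genes were called, and 2 members and 12% of all genes were at an unadjusted p under 0.05. At 24 h 0.459% of all genes were called, and 3 members (psme2, psma6l and psmb8a) and 14.6% of all genes were at an unadjusted p under 0.05. DESeq2 called no member in DMSO or at 3 h and 2 at 24 h, psma6l (adjusted p = 0.0246) and psme2 (adjusted p = 0.0287). Without KO 24 h replicate 3 the same 2 genes passed in edgeR (adjusted p = 0.0296 and 0.0255). The shares of all genes called by DESeq2 and without that replicate are not given here. The median log2 fold change of the core genes was 0.10 in DMSO, -0.06 at 3 h and 0.23 at 24 h, and of the 19S genes 0.10, 0.02 and 0.23.

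psmb5, the chymotrypsin-like catalytic subunit, was counted on more than 1 row of the table. Its named row lay on chromosome 2 at 38373272 to 38392575, and a second row on an alternate contig of chromosome 2, at 38369090 to 38389103, carried a Swiss-Prot match to the same subunit. On the named row it had 15.1 to 32.9 CPM in KO libraries, 46.5 to 56.8 CPM in WT replicates 3 and 4 and 17.6 to 21.5 CPM in WT replicates 1 and 2. On the second row it had 60.5 to 123 CPM in KO libraries and 52.7 to 82.2 CPM in WT libraries. The named row held at most 24.2% of the sum in KO, 39.9% to 49.1% in WT replicates 3 and 4 and 21.96% to 28.9% in WT replicates 1 and 2.

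The direction of psmb5 between KO and WT therefore depended on the rows used. The named row alone gave a log2 fold change of -0.62 (SE 0.24, edgeR adjusted p = 0.0798; DESeq2 adjusted p = 0.046, under the threshold), the second row alone 0.45 (adjusted p = 0.0051), and the sum of both 0.13 (SE 0.13, adjusted p = 0.555). The sum was 107.7 to 155.7 CPM in the 6 KO libraries that stood apart, 75.6 to 93.8 CPM in the other 6, 103.7 to 136.7 CPM in WT replicates 3 and 4 and 72.5 to 83.6 CPM in WT replicates 1 and 2, the order of the other core genes. Without WT replicates 3 and 4 the named row gave 0.28 (adjusted p = 0.18).

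**Figure D5:**
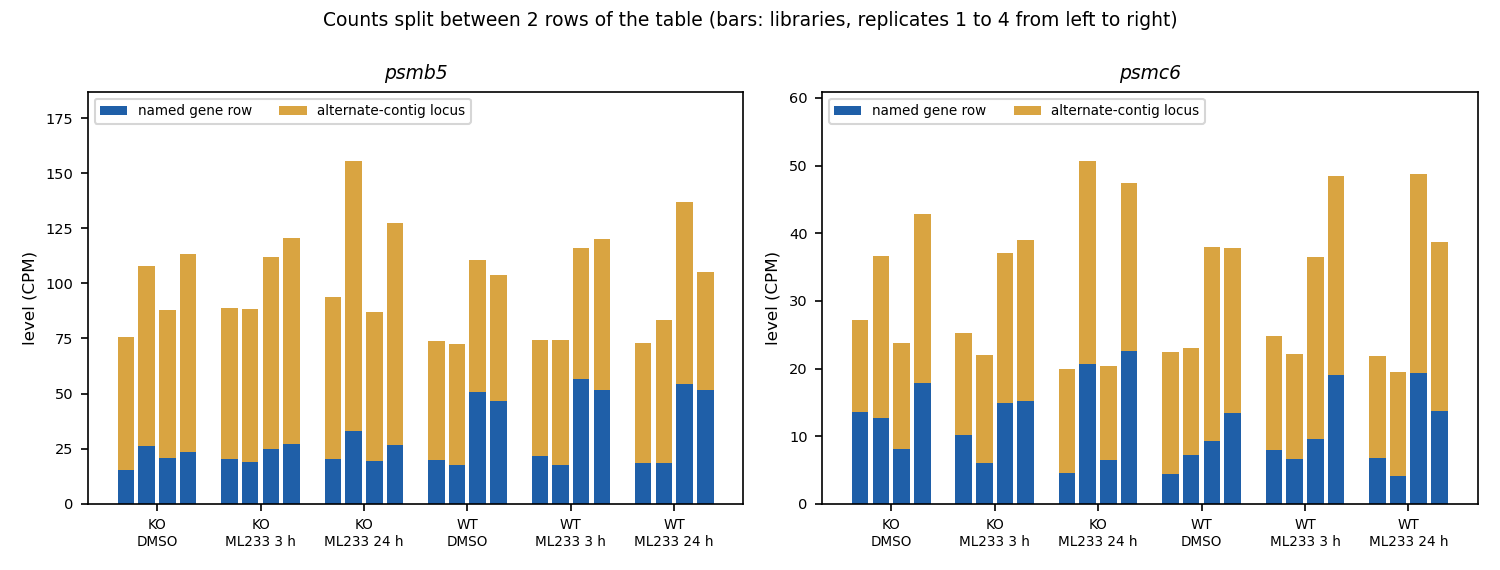
Level in CPM (vertical axis) of psmb5 (left) and psmc6 (right) in each library, stacked by the row of the table that holds the counts, with replicates 1 to 4 from left to right in each group (horizontal axis). The named psmb5 row is largest in WT replicates 3 and 4 (46.5 to 56.8 CPM), while the stacked sums follow the same low and high libraries in both genotypes.

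Other subunits were divided in the same way. psma5, an alpha subunit, fell below the count rule with 0 to 2 counts on its named row on chromosome 11, while a row on an alternate contig of chromosome 11 matched to it had 12.4 to 43.4 CPM in KO libraries and 13.6 to 35.3 CPM in WT libraries. psmc6, a 19S ATPase, had 4.56 to 22.6 CPM in KO libraries and 4.05 to 19.4 CPM in WT libraries on its named row and 13.6 to 30.02 CPM in KO libraries and 15.04 to 29.4 CPM in WT libraries on its second row. The log2 fold change of psmc6 was 0.34 (edgeR adjusted p = 0.506) on the named row and 0.04 (adjusted p = 0.942) for the sum. psme1, the partner of psme2 in the activator, had 0 to 2 counts on its named row and, on an alternate contig of chromosome 24, 0.33 to 13.5 CPM in KO libraries and 0.22 to 4.95 CPM in WT libraries. Its sum gave a log2 fold change of 0.33 (SE 0.60, adjusted p = 0.787). Rows on alternate contigs also held reads of psmc1a, psmc4 and psme4b. The named row held 68.2% to 78.1% of the psmc1a sum in KO and 65.3% to 75.0% in WT. For psmc4 it held 75.9% to 91.5% in KO and 79.4% to 92.8% in WT. For psme4b it held 91.6% to 99.5% in KO and 90.3% to 99.4% in WT. psma5, psmc6, psmc4 and psme1 were chosen for description after their values were seen.

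ML233 changed no member at the threshold in either genotype. For ML233 over DMSO at either time, in KO and in WT, the edgeR test called 0 of 47 members and 0% of all genes, and DESeq2 called no member. In KO, unadjusted p-values under 0.05 were found for 0 members at 3 h (1.51% of all genes) and for 0 at 24 h (2.82%). In WT, 1 member was at 3 h (1.68% of all genes) and 1 at 24 h (0.929%), in both cases psmd10, whose values follow.

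The median log2 difference of ML233 over DMSO in KO was 0.04 over the core genes and 0.07 over the 19S genes at 3 h, and 0.27 and 0.24 at 24 h. In WT it was 0.20 and 0.15 at 3 h, and 0.12 and 0.09 at 24 h, while the medians over all genes lay between -0.008 and 0.004 in these 4 comparisons. The comparisons within a genotype share their DMSO libraries. The core sum averaged 1042 ± 205 CPM in KO DMSO, 1072 ± 155 at 3 h and 1259 ± 414 at 24 h, and 977 ± 183 CPM in WT DMSO, 1113 ± 278 at 3 h and 1077 ± 309 at 24 h (SD, n = 4 each). No difference of these means between 2 treatments of a genotype exceeded the larger SD of the pair. Between same-numbered WT libraries, which deviated together, ML233 at 3 h was above DMSO in 4 of 4 pairs, by 136 ± 112 CPM for the core sum and 141 ± 163 CPM for the 19S sum (SD, n = 4 pairs; exact two-sided sign-flip permutation p = 0.125 for each, the smallest that 4 pairs allow). At 24 h WT was above DMSO in 3 of 4 pairs for each sum (exact permutation p = 0.25), as KO was in its pairs at 24 h (exact permutation p = 0.25). Not every library of these comparisons correlated best with the one of its own number, so the pairing is not established. In KO at 24 h the higher mean rests on replicates 2 and 4, at 1763 and 1431 CPM.

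The response to ML233 did not differ between the genotypes at the threshold. The interaction test in edgeR, which asks whether ML233 over DMSO differs between KO and WT, called 0 members and 0% of all genes at both times. Unadjusted p-values under 0.05 were found for 0 members and 0.929% of all genes at 3 h, and for 1 member (psmd10) and 1.14% of all genes at 24 h. ML233 for 24 h against 3 h likewise called 0 members and 0% of all genes. There, 1 member (psmf1, log2 difference 0.35) and 2.43% of all genes were at an unadjusted p under 0.05 in KO, and 0 members and 1.38% of all genes in WT. DESeq2 called no member in these tests.

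psmd10, which encodes the 19S assembly chaperone gankyrin and was chosen for description after its values were seen, had 1 library far from the rest. WT DMSO replicate 1 had 156 counts and 4.24 CPM, and the other WT libraries had 0.295 to 1.07 CPM, with 0.277 to 1.52 CPM in KO libraries. The log2 difference of ML233 over DMSO in WT was -1.43 at 3 h (unadjusted p = 0.0353) and -1.37 at 24 h (unadjusted p = 0.0413), and without that library no member was at an unadjusted p under 0.05 in either. The other assembly factors for the base, psmd5 and psmd9, had 15.5 to 26.7 and 9.67 to 23.0 CPM in KO and 14.5 to 24.1 and 10.01 to 17.3 CPM in WT.

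Genes that work with the particle were read from lists outside the members. Each count is read against the 9.39% of all genes that rose in KO over the 3 treatments. Of 4 tested core assembly chaperones, none was called in KO against WT (median log2 fold change 0.08). Of 6 tested proteins bound to the proteasome, txnl1, a thioredoxin-like partner of the 19S particle, rose (0.23, edgeR adjusted p = 0.0201) and none fell, and the ubiquitin receptor adrm1 had 0.21 (adjusted p = 0.385). The subunit gene PSMD2, written in capitals in the table and so outside the pattern, had 79.4 to 96.0 CPM in the KO libraries that stood apart, 62.3 to 70.6 CPM in the other KO libraries, 81.8 to 98.0 CPM in WT replicates 3 and 4 and 53.2 to 64.1 CPM in WT replicates 1 and 2. Its log2 fold change was 0.02 (adjusted p = 0.952).

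Among the 7 genes of the NFE2L1 axis, 3 rose in KO over the 3 treatments and none fell: nfe2l1a (0.86, edgeR adjusted p = 0.00869) and nfe2l1b (0.27, adjusted p = 0.0451), the 2 zebrafish copies of the regulator of proteasome genes, and nfe2l2a (0.37, adjusted p = 0.0215), the regulator of the oxidative stress response. The median of the list was 0.23. ddi2, the protease that activates NFE2L1 in mammals, had 0.16 (adjusted p = 0.313), and vcp, the segregase that extracts it from the membrane, had 0.23 (adjusted p = 0.445). The summed level of the list was 318 to 354 CPM in the KO libraries that stood apart and 248 to 258 CPM in the other KO libraries, against 232 to 260 CPM in WT replicates 3 and 4 and 237 to 253 CPM in WT replicates 1 and 2. Without the KO libraries that stood apart, none of the 7 was called, with nfe2l1a at 0.17 (adjusted p = 0.519), and the median was 0.011. Without WT replicates 3 and 4, and without both sets, only ddi2 and vcp rose, while nfe2l1a had 0.59 (adjusted p = 0.175) and -0.0903 (adjusted p = 0.673). Of 9 tested ubiquitin genes and shuttle factors, rad23ab, which carries ubiquitinated proteins to the proteasome, rose (0.21, adjusted p = 0.0158) and none fell. Without the KO libraries that stood apart no gene of the lists of assembly chaperones, bound proteins and shuttle factors was called, with txnl1 at 0.10 (adjusted p = 0.439) and rad23ab at 0.087 (adjusted p = 0.314). Without WT replicates 3 and 4 txnl1 and ubqln4, and without both sets pomp, usp14, txnl1 and ubqln4, rose and none fell. Of all genes, 1.79% rose without those KO libraries, 4.11% without WT replicates 3 and 4 and 5.19% without both sets. No gene of these 4 lists was called in ML233 against DMSO in either genotype, where 0% of all genes were called.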

How the data were processed

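Per the labels' protocols, RNA of pooled embryos was captured on poly-T beads and made into paired-end Illumina libraries with dUTP in the second strand. The authors deposited raw counts, whole numbers per gene and library in 1 table, without normalization. HISAT2 2.0.5, StringTie, featureCounts, R 4.3.2, DESeq2 1.42.1 and the build GRCz11 are named in the submitters' processing notes, and the strand setting and annotation release are not given in the sources used here. Rows of overlapping genes and near-identical copies are therefore uncertain, and no sequences were used here.

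The tests ran in edgeR 4.0.16 (R 4.3.3, limma 3.58.1). filterByExpr (minimum count 10) left 27010 genes, among them all 47 members, and TMM factors were 0.833 to 1.083. A quasi-likelihood fit with a term per group over 24 libraries gave two-sided tests, adjusted by Benjamini-Hochberg over all genes and called under 0.05. The script was tested on simulated data. The members, their classes, the marker and pathway lists and the alternatives were chosen with earlier results of these data known. Members named by rule were the immunoproteasome-type, psme and psmf1 genes, psmb5, psmb6, psmb7, psmd14, the 4 smallest and the largest p of the core and of the 19S class, and their paralogs. Alternatives were RLE and upper-quartile scaling, other count filters, only the groups compared, a replicate block, 3 surrogate variables (sva 3.50.0), DESeq2 1.42.0, leaving out each library, leaving out the libraries that stood apart, and, added after the data were seen, summing rows on alternate contigs, the lists without the libraries that stood apart, and class sums compared within same-numbered libraries. Between replicates, the gene-wise chi-square was at least 4.26 for each degree of freedom, so no library was counted as a copy of another. Same-numbered libraries deviated together in each of 4 pairs (correlation over 0.1) between the treatments of WT, between KO 24 h and KO DMSO, and between KO and WT at 3 h, and not in the other comparisons. In no comparison did every library correlate best with the one of its own number.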

Additional observations from a re-analysis of the deposited data

Results flagged for a closer look

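In groups of 4 libraries, a library whose gap to its nearest neighbour exceeded Dixon's 95% limit was looked for in 198 groups, which chance alone would give in about 1 in 20, or 9.9. It was met 5 times. psmb10 was lowest in WT DMSO replicate 2, at 2.33 CPM, against 4.62 to 5.07 CPM in the other 3. psmb8a was highest in KO DMSO replicate 4, at 0.603 CPM, against 0.255 to 0.308 CPM. The row of psme1 on an alternate contig was highest in KO DMSO replicate 2, at 2.23 CPM, while the other 3 libraries had 0.330 to 0.415 CPM. At 3 h KO replicate 2 had 6.10 CPM, and its group otherwise 0.810 to 1.502 CPM. WT replicate 1 at 3 h had 3.27 CPM, and its group otherwise 0.223 to 0.481 CPM.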

How the results depend on the processing

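Of the counts of called members, those in DMSO, in ML233 against DMSO, at 24 h against 3 h and in the interactions were 0 under every alternative run. KO against WT over the 3 treatments gave 3 called members as reported, 13 with 3 surrogate variables (psme2 kept, psma6l and psme4a lost), 0 without the KO libraries that stood apart, 5 without the WT libraries that stood apart and 12 without both, all higher in KO, and 3 to 4 when single libraries were left out. The added member was psmb8a without WT DMSO replicate 2, psmb12 without WT 24 h replicate 1, and psmb5, lower in KO, without WT 3 h replicate 2 or WT 24 h replicate 2. With DESeq2 it gave 4, those 3 and psmb5, which was lower in KO on its named row. At 3 h the count was 2 with 3 surrogate variables. At 24 h it was 1 with 3 surrogate variables, 2 with DESeq2, and 0 to 2 when each library was left out, with the 2 reached without KO replicate 3. The shares of all genes called with 3 surrogate variables, with DESeq2 and with single libraries left out are not given here. Those counts are therefore not read as results about the members. The replicate block changed no count of called members (3 over the 3 treatments), though members at an unadjusted p under 0.05 became 15 in WT at 3 h against DMSO. Without the block these were psmd10 among the members and 1.68% of all genes. The share of all genes with the block is not given here, so the 15 is not read as a result about the members. The cause of these shifts was not tested. Fitting only the groups compared, other scalings and other count filters left the calls as they were. The share of all genes that changed sign without the libraries that stood apart is not given here. Counts of sign changes are therefore not read as results about the members. The median log2 fold change over the members was 0.11 with all libraries and -0.17 without the KO libraries that stood apart. Most members moved together from library to library, so their sign changes are not separate reversals. Over the 3 treatments 36 of 47 members changed the sign of the log2 fold change without the KO libraries that stood apart. Without the WT libraries that stood apart 4 did, and without both sets 6 did. Among the members named by rule these were, without the KO libraries, psma6a (-0.17), psma6b (-0.14), psmb1 (-0.17), psmb10 (-0.20), psmb6 (-0.20), psmb7 (-0.18), psmc1a (-0.18), psmc1b (-0.18), psmd11a (-0.13), psmd11b (-0.089), psmd12 (-0.23), psmd14 (-0.13), psmd7 (-0.059), psmd8 (-0.14) and psme3 (-0.16). Without the WT libraries that stood apart they were psmb5 (0.28, and 0.19 in DMSO, 0.22 at 3 h and 0.43 at 24 h), psme4b (0.12) and psmf1 (0.0054). Without both sets they were psma6b (-0.0039), psmb5 (0.018, and 0.12 at 24 h), psmb8a (-0.045), psme4b (0.051), and psme4a in DMSO (-0.018) and at 24 h (-0.0035). With 3 surrogate variables they were psma6b (-0.034), psmb10 (-0.0028), psmb8a (-0.0895), psme4a (-0.0303, and -0.011 at 3 h and -0.10 at 24 h), psme4b (0.044), psma6l at 3 h (-0.10), and psmb5 at 3 h (0.031) and at 24 h (0.063). With the rows on alternate contigs added, psmb5 gave 0.13, and 0.093 in DMSO, 0.091 at 3 h and 0.22 at 24 h. Leaving out each library in turn gave -0.011 to 0.11 for psma6a, -0.0195 to 0.11 for psmc1a, -0.021 to 0.074 for psmd12 and -0.072 to 0.0062 for psmf1. Counting error was largest for psmb8a, psmb9a and psmb12, which had at most 33 counts in any library.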
